A study of Homo sapiens with 6 samples.

Results

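The genes described here are 8 transcription factors of the mammary epithelial lineage, GATA3, FOXA1, ESR1, TRPS1, TFAP2A, TFAP2C, SPDEF and ELF5, taken by name from 20090 protein-coding genes. Their chromatin folding was read from in situ Hi-C maps of 4 human cancer cell lines, in which chromatin was cut with MboI and each pair of reads joins a pair of genomic sites that were close in the nucleus. HCC1954 is a breast cancer line that is known for amplified ERBB2 and for lacking hormone receptors. SW480 and SNU-C1 are colorectal cancer lines, and OE33 is an esophageal adenocarcinoma line. The labels name no treatment, and each line is 1 established culture, so a difference between lines is also a difference between the genomes of 4 tumours. A single map was used for HCC1954, for SNU-C1 and for OE33, whereas SW480 came with 2 replicates and another map that equalled their sum at 99.9% of 28969343 bin pairs and was used for the line. No test between lines was run, since the spread within a line would have rested on the 2 SW480 replicates alone. Values are given with the difference between the SW480 replicates, or with exact 95% Poisson intervals of the read pairs, which cover counting error alone. Hi-C measures no RNA, so whether these genes were expressed was not measured.

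Mammary ducts are lined by luminal cells that sense hormones or make milk and by basal cells that contract. GATA3 is a zinc-finger factor that maintains luminal cells, FOXA1 is a forkhead factor that can bind closed chromatin and opens it for other factors, and ESR1 encodes estrogen receptor alpha. TRPS1 is a repressor of the GATA family. TFAP2A and TFAP2C are AP-2 factors, of which TFAP2C regulates luminal genes that include ESR1. SPDEF and ELF5 are ETS factors, the former found in luminal cells and also in the goblet cells of the intestine, the latter a regulator of the cells that form milk-secreting alveoli. In the nucleus, gene-rich active chromatin contacts other active chromatin (the A compartment) and inactive chromatin contacts inactive chromatin (the B compartment).

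The 8 genes overlapped 33 of the 75918 bins of 40 kb, and with 1 Mb on either side they spanned 433 bins, all with usable coverage in all 4 lines. Read pairs within chromosomes numbered from 65987212 in SW480 replicate 1 to 133377947 in the pooled SW480 map, with 93501178 in HCC1954. In the SW480 map the summed values of the bins of a chromosome had a median interquartile range of 0.0657% of their median, and the chromosome medians differed up to 1.75-fold. In the other lines the bins of a chromosome ranged by 6.81% to 7.60% and the chromosome medians by 1.202-fold to 1.253-fold. SW480 held 0.264% of its read pairs between chromosomes, against 14.8% to 36.6% in the other lines, and was left out of comparisons between chromosomes. As a check of the labels, the bins of ERBB2 were covered 49.6 times the autosomal median in HCC1954 and 16.0 times in OE33, against 0.784 in SNU-C1 and 1.03 in SW480.

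The compartment value, read in 200-kb blocks and scaled to a standard deviation of 1 over the genome, is positive in A and negative in B. It differed most between lines at GATA3, FOXA1, ESR1 and TRPS1. At FOXA1 (chr14:38058757-38065264, minus strand) the value was 0.48 in HCC1954, -0.29 in OE33, -0.79 in SW480 and -0.92 in SNU-C1. HCC1954 was the single line on the A side, above the nearest line by 0.78, where the SW480 replicates, at -0.61 and -0.85, differed by 0.23. Over all genes these replicates differed by 0.072 at the median but by 1.032 at the 95th percentile, which is more than that margin. The sign depended on the block size, since with 400-kb blocks FOXA1 was at -0.0029 in HCC1954, -0.78 in OE33, -1.001 in SW480 and -1.15 in SNU-C1, so that HCC1954 was still the highest line but no line was on the A side. FOXA1 was the 1 member of 8 called higher in HCC1954, by a margin of at least 0.5 over every other line, and 4.78% of 18089 genes with values were called the same way. No member was called lower, against 2.61% of genes.

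GATA3 and ESR1 had a second pattern, with HCC1954 and OE33 on the A side and both colorectal lines on the B side. GATA3 (chr10:8087341-8117161, plus strand) stood at 0.62 in HCC1954 and 0.77 in OE33, and at -0.28 in SW480 and -0.57 in SNU-C1. ESR1 (chr6:151977826-152450754, plus strand) stood at 0.54 in HCC1954 and 0.29 in OE33, and at -0.69 in SW480 and -0.90 in SNU-C1. The gaps of 0.89 and 0.98 between the lowest line on the A side and the highest on the B side exceeded the differences between the SW480 replicates at these genes, which were 0.19 and 0.038. Both gaps were below the 95th percentile of the replicate difference over all genes (1.032). This arrangement of signs, chosen after the values were seen, was found at 1.75% of all genes, and that of FOXA1, positive in HCC1954 alone, at 2.33%.

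TRPS1 (chr8:116420724-116821899, minus strand) paired HCC1954 with a colorectal line instead. Its value was 0.78 in HCC1954 and 0.79 in SNU-C1, which differed by less than the SW480 replicates did (0.16), against -0.62 in OE33 and -1.22 in SW480. TFAP2A (chr6:10393419-10419892, minus strand) was at 0.92 in HCC1954 and 0.76 in OE33, near 0 in SW480 (0.094) and at -0.18 in SNU-C1. HCC1954 thus stood at least 0.5 above both colorectal lines at 4 of the 8 genes, GATA3, FOXA1, ESR1 and TFAP2A. The same held for 7.59% of all genes, in a comparison that was also chosen after the values were seen.

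The other 3 genes did not show HCC1954 high. TFAP2C (chr20:55204362-55214339, plus strand) was highest in SW480 (0.63), followed by OE33 (0.29), HCC1954 (-0.061) and SNU-C1 (-0.32). SPDEF (chr6:34505579-34524110, minus strand) was on the A side in all 4 lines, between 0.94 in OE33 and 1.07 in SNU-C1, and the steps between neighbouring lines were no larger than the 0.069 between SW480 replicates. ELF5 (chr11:34500338-34546740, minus strand) was also on the A side throughout, from 0.96 in SNU-C1 to 1.19 in OE33, with a replicate difference of 0.13. Over the 8 genes the median of HCC1954 minus the median of the other lines was 0.86, and over all genes it was 0.054.

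**Figure D1:**
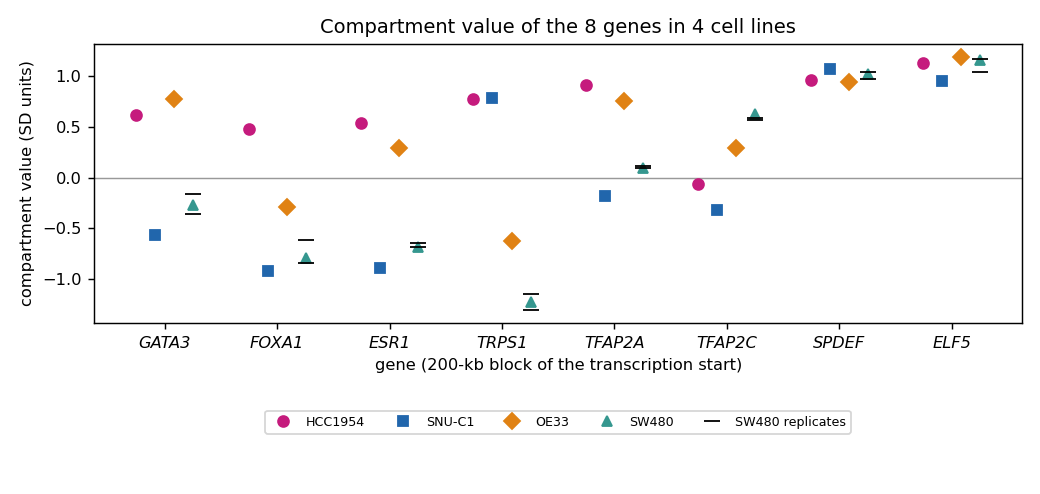
Compartment value (SD units, vertical axis) of the 200-kb block with the transcription start of each gene in HCC1954, SNU-C1, OE33 and SW480, with black dashes for the 2 SW480 replicates. HCC1954 is above 0 at 7 of the 8 genes, as it was at 80.8% of all genes, FOXA1 is above 0 in HCC1954 alone (with 400-kb blocks, not plotted, it was at -0.0029 there), and SPDEF and ELF5 are close to 1 in every line.

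The bases that precede the start of the 3 genes positive in HCC1954 and negative in both colorectal lines are shown with their MboI sites. They were read from the GRCh37 genome, which has the chromosome lengths of the hg19 bins, at chr14:38064455-38064704 (minus strand), chr10:8096401-8096650 (plus strand) and chr6:152128567-152128816 (plus strand), 5′ to 3′, with the MboI site GATC, the same on both strands, in capitals.
FOXA1: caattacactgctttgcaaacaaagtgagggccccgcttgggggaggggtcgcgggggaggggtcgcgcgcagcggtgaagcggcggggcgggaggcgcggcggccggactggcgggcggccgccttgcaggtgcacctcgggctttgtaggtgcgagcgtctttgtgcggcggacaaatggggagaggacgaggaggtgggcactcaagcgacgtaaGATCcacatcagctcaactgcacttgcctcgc
GATA3: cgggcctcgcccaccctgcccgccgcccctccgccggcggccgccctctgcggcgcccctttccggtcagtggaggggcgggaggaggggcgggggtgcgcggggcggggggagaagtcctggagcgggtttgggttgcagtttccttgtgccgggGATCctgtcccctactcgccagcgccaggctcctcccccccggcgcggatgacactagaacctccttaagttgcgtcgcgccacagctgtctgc
ESR1: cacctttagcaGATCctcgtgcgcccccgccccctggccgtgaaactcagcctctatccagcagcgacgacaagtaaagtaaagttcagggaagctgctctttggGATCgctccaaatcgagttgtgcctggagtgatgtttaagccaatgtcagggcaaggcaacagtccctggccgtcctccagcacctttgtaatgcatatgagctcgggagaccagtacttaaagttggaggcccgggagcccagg
FOXA1 and GATA3 each had 1 site in this stretch, and ESR1 had 2. In windows from 250 bases before to 50 bases after the start, 6 of the 8 genes and 40.1% of 20086 promoters held GATC, and TRPS1 and TFAP2C did not. CpG dinucleotides in the same windows were dense at TRPS1, FOXA1 and TFAP2C, with ratios of observed to expected CpG of 1.28, 0.966 and 0.926 beside a median of 0.773 over all promoters. GATA3 was near that median (0.804). The ratio was below it at SPDEF (0.397), ELF5 (0.433), TFAP2A (0.539) and ESR1 (0.666), of which SPDEF and ELF5 alone were on the A side in every line. The 40-kb start bins held from 81 MboI sites at FOXA1 and TRPS1 to 121 at SPDEF, where the median bin held 98. Contacts were measured in bins of this size or larger, and the reference sequence is the same for every line. Whether the sites bear on differences between lines was not tested.

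The difference at GATA3 and FOXA1 extended into the flanks, mostly downstream. Of the 11 blocks centred on GATA3, 9 were on the A side in HCC1954, 7 in OE33, 1 in SW480 and none in SNU-C1, and the largest excess of HCC1954 over the median of the other lines, 1.93, lay 0.8 Mb downstream. Around FOXA1, 6 blocks were on the A side in HCC1954, namely the gene and the 1 Mb downstream of it, 4 in OE33, 1 in SW480 and none in SNU-C1. FOXA1 itself lay at the end of that stretch: the next block upstream was at -0.45 in HCC1954, and the block 0.6 Mb downstream was at 1.09 against 0.60 in OE33, -0.59 in SW480 and -1.23 in SNU-C1. The single A block of SW480 lay 0.4 Mb upstream of FOXA1, at 0.088, where HCC1954 was at -0.68.

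At ESR1 the upstream megabase was on the A side in all 4 lines and the lines parted inside the gene. HCC1954 and OE33 stayed positive from the start to 0.4 Mb downstream, at 0.45 and 0.38 there, while SW480 and SNU-C1 were at -0.51 and -0.96. From 0.6 Mb downstream all 4 lines were negative. Around TRPS1, 8 of 11 blocks were on the A side in HCC1954, 6 in SNU-C1 and 1 each in OE33 and SW480, and the block 0.6 Mb upstream separated HCC1954 (0.98) from SNU-C1 (-0.39). Around TFAP2C 1 block of 11 was positive in HCC1954, against 4 in SNU-C1, 6 in OE33 and 7 in SW480, and all 11 blocks around SPDEF and around ELF5 were positive in every line.

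**Figure D2:**
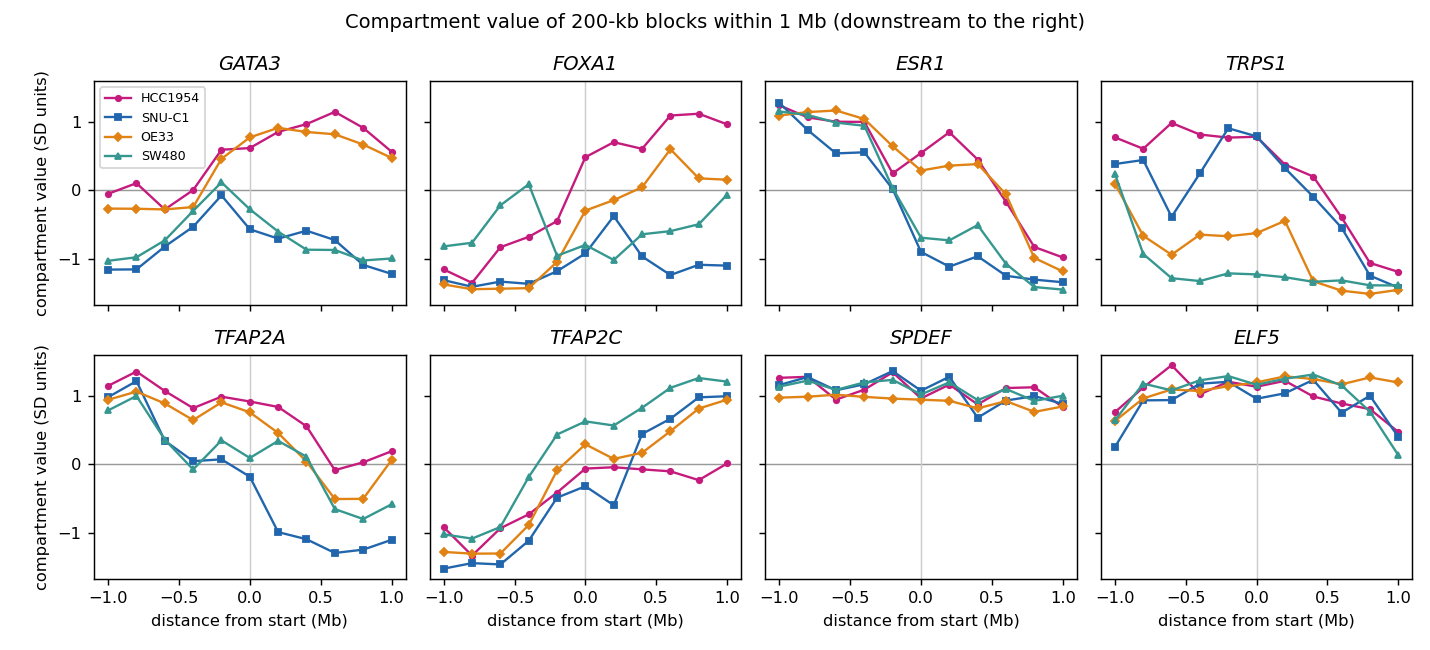
Compartment value (SD units) of the 200-kb blocks within 1 Mb of each transcription start, with distance in Mb and downstream to the right, in 4 lines. HCC1954 and OE33 are both positive across the megabase downstream of GATA3, HCC1954 is highest across the megabase downstream of FOXA1, and the lines part at the start of ESR1.

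The compartment value summarises contacts with the whole chromosome, so the contacts behind it were also counted. Observed over expected (O/E) contact frequency divides a contact by the genome-wide mean at its distance. At least 2 Mb away, the FOXA1 block contacted 210 A blocks of chromosome 14 at an O/E of 1.38 (1.33 to 1.42, 3576 read pairs) in HCC1954, 1.06 (1.02 to 1.11) in OE33, 0.814 (0.778 to 0.851) in SW480 and 0.680 (0.648 to 0.713) in SNU-C1. The A and B blocks were the same for every line. They were classed from the mean O/E map of the 4 lines, HCC1954 included, so these contacts are not independent of the compartment values. The O/E values are means over blocks, each capped at 4, to which the interval of the total read pairs was applied. The 4 intervals did not overlap, but that of SW480 held neither of its replicates, at 0.855 and 0.770. Such intervals are thus narrower than the spread between maps of a line. Contacts of the FOXA1 block with 202 B blocks were closer together, from 1.21 (1.167 to 1.254) in HCC1954 to 1.45 (1.39 to 1.51) in OE33. ESR1 gave the same order for A blocks, 1.39 (1.34 to 1.44) in HCC1954 and 1.22 (1.17 to 1.26) in OE33 above 0.889 (0.856 to 0.922) in SW480 and 0.859 (0.824 to 0.895) in SNU-C1. For GATA3 the lines differed more in contacts with B blocks, which were 0.798 (0.739 to 0.860) in HCC1954 and 0.594 (0.562 to 0.627) in OE33 against 0.979 (0.940 to 1.02) in SW480 and 1.38 (1.31 to 1.44) in SNU-C1. These levels rest on the genome-wide expected value, while summed contacts within chromosomes differed between chromosomes, most in SW480 and OE33. They were not computed with the expected value of the chromosome alone, so the order of the lines in them is less certain. The ratio of A to B contacts at TRPS1 was 1.37 in HCC1954, 1.39 in SNU-C1, 0.639 in OE33 and 0.420 in SW480.

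The log2 preference for A over B blocks, classed in the same way, was also used in place of the eigenvector. It was centred on its genome mean and scaled by its standard deviation in each map, so that positive means above the genome mean. On that scale FOXA1 remained the single gene positive in HCC1954 and negative in the other lines. It was at 0.21 against -0.19 in OE33, -0.65 in SW480 and -0.82 in SNU-C1, but its margin was then below 0.5 and the call was lost. The SW480 replicates differed by 0.34 in that measure. TFAP2C changed sign in HCC1954 between the measures, with a preference of 0.26.

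Within 1 Mb, FOXA1 had a contact 320 kb downstream with an O/E of 2.43 (2.33 to 2.54, 2040 read pairs) in HCC1954, 2.51 (2.36 to 2.66) in SNU-C1, 2.27 (2.09 to 2.45) in OE33 and 2.48 (2.32 to 2.65) in SW480. Each of these 4 intervals overlapped with those of the other lines, on the genome-wide expected value. With that of chromosome 14 alone, the flank contacts of FOXA1 went from 1.15 to 1.07 in SW480 and from 1.17 to 1.20 in HCC1954. They went from 1.12 to 1.10 in SNU-C1 and from 1.23 to 1.22 in OE33. The contact 320 kb downstream was not recomputed in that way. ESR1 had a contact 440 kb downstream, past the 3′ end of the gene, at 1.99 (1.84 to 2.15) in HCC1954, 2.06 (1.883 to 2.245) in SNU-C1, 2.099 (1.915 to 2.295) in OE33 and 1.73 (1.58 to 1.88) in SW480. The SW480 value was the lowest, but these values use the genome-wide expected value, and with that of chromosome 6 alone the flank contacts of ESR1 went from 0.804 to 0.860 in SW480 and from 0.894 to 0.873 in SNU-C1, so no difference between lines is drawn from this contact. The mean O/E of all bins of a gene with bins 80 kb to 1 Mb beyond its ends ranged over the lines from 1.12 to 1.23 at FOXA1 and from 0.789 to 0.894 at ESR1. No member had flank contacts at least 1.5 times above or below every other line in HCC1954, and 0.00% and 0.403% of 16883 genes did.

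GATA3 was contacted unevenly from its 2 sides. Downstream flank contacts were 2.33 in HCC1954, 2.16 in OE33, 1.78 in SNU-C1 and 1.32 in SW480, and the upstream ones were between 0.753 and 0.902. The downstream signal rose to a contact 840 kb away, a stretch with no start of a protein-coding gene in its 3 bins, at 3.85 (3.44 to 4.30, 314 read pairs) in HCC1954, 3.44 (3.09 to 3.81) in OE33, 3.20 (2.84 to 3.59) in SNU-C1 and 1.91 (1.68 to 2.16) in SW480. The SW480 replicates gave 1.94 and 1.87. SNU-C1 thus had the contact at a level near those of HCC1954 and OE33 while its compartment value at GATA3 was the lowest of the 4. Because the summed values of SW480 bins differed between chromosomes but hardly within them, flank contacts were also divided by the expected value of chromosome 10 alone, which gave 1.46 in HCC1954, 1.54 in OE33, 1.24 in SNU-C1 and 1.19 in SW480.

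TFAP2A had the highest ratio of downstream to upstream flank contacts of the 8 genes in every line. It came to 5.06 in HCC1954, 4.17 in SW480, 3.60 in OE33 and 2.94 in SNU-C1, and the gene's highest contact, 920 kb downstream, lay between 2.46 in SW480 and 3.05 in HCC1954. For TFAP2C the ratios ran from 1.84 in SNU-C1 to 3.24 in HCC1954, and in SNU-C1 and OE33 those of GATA3, 2.17 and 2.87, were higher. TFAP2C stood out in SW480, with flank contacts of 1.40 (1.35 to 1.45) against 0.716 to 0.828 in the other lines, but with the expected value of chromosome 20 alone the SW480 value was 1.04 and the others were 0.800 to 0.811. SPDEF had a contact 600 kb upstream, with bins that hold the starts of SCUBE3 and TCP11, at 2.45 (2.23 to 2.69, 441 read pairs) in HCC1954, 1.85 (1.65 to 2.06) in SW480, 1.78 (1.59 to 1.98) in SNU-C1 and 1.32 (1.18 to 1.48) in OE33.

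**Figure D3:**
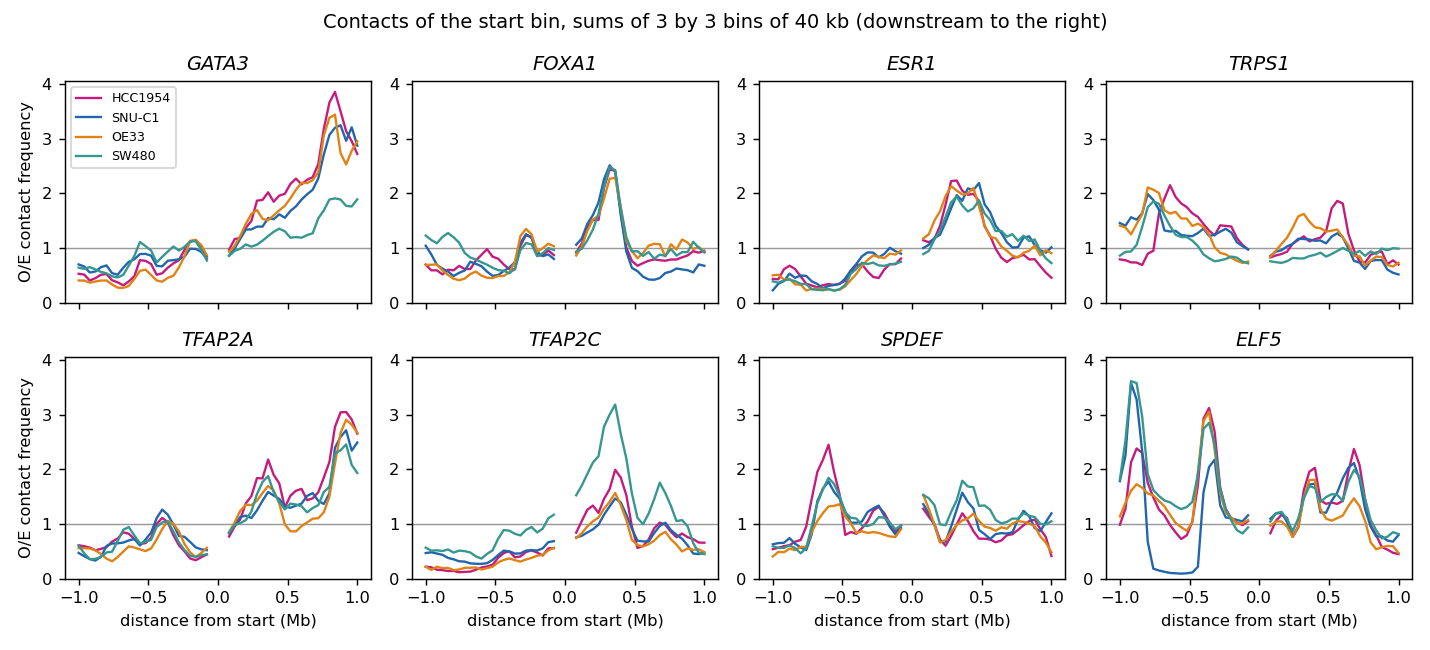
O/E contact frequency of the start bin of each gene with bins from 80 kb to 1 Mb away, as sums of 3 by 3 bins of 40 kb, against distance in Mb with downstream to the right, in 4 lines. Expected values are genome-wide. The contact 320 kb downstream of FOXA1 is similar in all lines, and that 840 kb downstream of GATA3 is lower in SW480. ELF5 has a stretch near 0 upstream in SNU-C1.

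No single contact set HCC1954 apart by the rule of a 2-fold ratio over the highest other line, with 0.5 added to each O/E and at least 10 read pairs. The rule was met by 0.0612% of 17974 genes in HCC1954, 0.0779% in SNU-C1, 0.0835% in OE33 and 0.145% in SW480, and by no member in any line. The highest HCC1954 ratio was 1.37, for TRPS1 with a bin 600 kb downstream, where O/E was 1.81 (1.65 to 1.98) in HCC1954, 1.19 in both SNU-C1 and OE33, and close to 1 in SW480. SPDEF followed at 1.34, with bins 720 kb upstream that hold the starts of DEF6, PPARD and ZNF76. For FOXA1 the ratio was 1.24, with bins 560 kb upstream that hold the start of SSTR1. ESR1 reached 1.204 with the bins of MTHFD1L, TFAP2C 1.18 with those of ZBP1 and ELF5 1.10 with those of LMO2, while GATA3 (1.23) and TFAP2A (1.21) had their highest ratios with bins that hold no such start.

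Among the other lines the highest ratio belonged to SW480. TFAP2C with a bin 280 kb downstream had a ratio of 1.67 there, on the genome-wide expected value, and FOXA1 with a bin 840 kb upstream had 1.61. The latter contact had an O/E of 1.27 (1.07 to 1.503, 139 read pairs) in SW480 and 0.508 to 0.605 in the other lines, with 1.29 and 1.24 in the replicates. Over the 10 contacts between 640 kb and 1 Mb upstream of FOXA1, the median O/E was 1.12 in SW480 and 0.547 to 0.658 in the other lines.

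Insulation, the log2 of contacts that cross a bin within 1 Mb on each side over the chromosome's mean, is low at boundaries between domains. The start bin of TFAP2A had the lowest values, -0.90 in HCC1954, -0.94 in OE33, -0.73 in SNU-C1 and -0.60 in SW480, and in every line a boundary lay 40 kb upstream of it. TRPS1 was the least insulated, at 0.58, 0.44, 0.77 and 0.39 in the same order. FOXA1 stood at -0.31 in HCC1954, -0.29 in OE33, -0.0031 in SW480 and 0.27 in SNU-C1, and GATA3 at 0.093, 0.025, 0.25 and 0.28 in the same order. Without iterative correction, HCC1954 minus the median of the other lines changed sign at 4 genes, from -0.30 to 0.63 at FOXA1, -0.16 to 0.11 at GATA3, -0.17 to 0.52 at TFAP2A and -0.066 to 1.06 at TFAP2C. ESR1 was higher in HCC1954 (0.30) than in SNU-C1 (0.023), SW480 (-0.037) and OE33 (-0.060). The SW480 replicates differed by 0.081 at most at these genes. No member passed a margin of 0.3 in either direction, although ESR1 came to 0.28, and 0.591% and 1.38% of 16588 genes passed it upward and downward.

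Boundaries within 1 Mb of the 8 starts numbered 18 in HCC1954, 20 in SNU-C1, 18 in OE33 and 17 in SW480. Of those in HCC1954, 9 had a boundary within 1 bin in all other lines and 4 had none in any, and over the genome the same held for 47.6% and 12.7% of 2536 boundaries. Of SW480 replicate 1, 16 of 18 boundaries were found in replicate 2, against 93.5% over the genome. All 4 boundaries around ELF5 and all 3 around ESR1 were among the shared ones. The 4 boundaries of HCC1954 with none within 1 bin in the other lines' maps were 2 near TFAP2C and 1 each near TRPS1 and SPDEF, but a single SW480 replicate had a boundary within 1 bin of the one near TRPS1 (replicate 2) and of the one 440 kb upstream of TFAP2C (replicate 1). Most had a boundary of another line not far beyond 1 bin. The one near TRPS1 lay 680 kb downstream, beside 760 kb in SNU-C1 and 600 kb in OE33. The one near SPDEF lay 120 kb downstream, beside 40 kb in SNU-C1. The other near TFAP2C lay 840 kb downstream, beside 760 kb in SNU-C1 and SW480, while 440 kb upstream the nearest line was SW480, at 320 kb.

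Coverage, the read pairs of a bin over the autosomal median of the map, differs with the number of DNA copies and also with how well a bin is captured. Over each gene and 1 Mb on either side, TRPS1 had 2.32 in HCC1954, 2.12 in SNU-C1, 1.34 in OE33 and 0.814 in SW480. The order of the 4 lines was close to that of the compartment value at TRPS1, where HCC1954 and SNU-C1 were also high, and the part of coverage in that value was not tested. FOXA1 had 1.63 in HCC1954 and 0.868 to 0.967 in the other lines, and TFAP2A had 1.76 in HCC1954 against 1.28 in OE33, 0.965 in SNU-C1 and 0.908 in SW480. These 3 genes were at least 1.5 times above the median of the other lines in HCC1954, as were 8.59% of 19404 genes, and no member was as far below it, against 13.8% of genes. FOXA1 was thus high in HCC1954 in coverage and in compartment value alike. ESR1 was at 1.285 in HCC1954 and 1.28 in OE33 against 1.02 in SNU-C1 and 0.995 in SW480, the same split as in its compartment value, and at TFAP2A HCC1954 and OE33 were likewise the highest lines in both measures. The part of coverage in these compartment values was not tested either. GATA3, at 0.861 in HCC1954, 0.920 in SNU-C1, 0.885 in SW480 and 1.22 in OE33, was not raised in coverage in HCC1954, and neither was ELF5 (1.246, against 1.27 to 1.60). SPDEF was at 1.03 in HCC1954, 1.35 in OE33, 0.778 in SNU-C1 and 0.744 in SW480. OE33, the highest line there in coverage, was the lowest in compartment value, in which the lines were close together. TFAP2C was high in all lines, from 1.39 in SW480 to 1.92 in OE33, and SW480 replicates differed in coverage by 0.027 at most over the 8 genes.

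**Figure D4:**
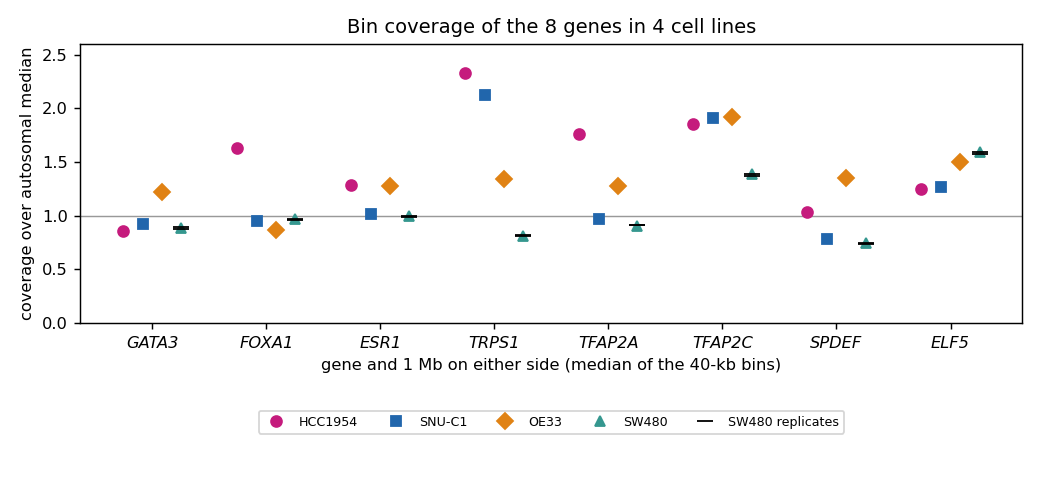
Coverage of each gene with 1 Mb on either side, as the median over its 40-kb bins divided by the autosomal median of the map, in 4 lines, with black dashes for the 2 SW480 replicates. HCC1954 stands above the other lines at FOXA1 and TFAP2A and shares its high value at TRPS1 with SNU-C1.

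Coverage was not even across these windows. In HCC1954 the 7 bins from 760 kb to 1 Mb upstream of TRPS1 were covered 4.87 to 9.14 times the autosomal median, against 1.92 to 3.49 in the 16 bins from 80 to 680 kb upstream, the nearest of which lie within the gene. Contacts of TRPS1 with those 7 bins had a median O/E of 0.776 in HCC1954, 1.56 in SNU-C1, 1.44 in OE33 and 1.06 in SW480. ELF5 showed the same in SNU-C1 to a greater degree. There 11 bins upstream of ELF5 were covered more than 10 times the median, and the 9 bins from 440 to 760 kb upstream, at the PDHX gene and beyond it, had a coverage of 28.3 to 39.4 against 1.09 to 1.96 in the other lines. The O/E of ELF5 with these 9 bins was 0.0941 to 0.219 in SNU-C1, while the medians of the other lines were 1.047 to 1.40. The insulation at ELF5 was -0.60 in SNU-C1 and -0.24 to -0.23 in the other lines. Iterative correction divides a bin's contacts by its coverage, and its part in these low values was not tested.

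Between chromosomes, contacts of the 1-Mb block of each gene were called when O/E was at least 4 and, with 0.5 added, at least 4 times that of the other 2 lines, with at least 10 read pairs. In HCC1954 this held for 5 of 8 members, with 44 partner blocks for TRPS1, 41 for TFAP2C, 19 for FOXA1, 10 for TFAP2A and 7 for ELF5, and for 48.0% of 17896 genes. GATA3, ESR1 and SPDEF had none there. In SNU-C1 it held for 4 members, TFAP2C with 39 blocks and ESR1, ELF5 and TRPS1 with 1 or 2, against 30.3% of genes, and in OE33 for TRPS1 with 11 and FOXA1 with 7, against 11.8%.

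TRPS1 and FOXA1 were both reached by contacts between chromosomes 8 and 14 in HCC1954, from different sides. The TRPS1 block contacted the block from 36 to 37 Mb of chromosome 14 at an O/E of 85.5 (80.04 to 91.2, 911 read pairs), against 1.52 in SNU-C1 and 0.726 in OE33. These contacts had sharp edges. On chromosome 8 they began at the bin at 116.16 Mb, where each bin up to the end of the block held 22 to 113 read pairs and the 4 bins before it held 1 in total, so that the edge lay past the 3′ end of TRPS1 and the whole gene was on the side in contact. On chromosome 14 they ended with the bin at 36.88 Mb, and the last 2 bins of the block held 0 read pairs. FOXA1 lay 1.14 Mb beyond that edge, on the side without contact, and its 1-Mb block met that of TRPS1 at an O/E of 1.41 (13 read pairs). The block of FOXA1 had its own contacts with chromosome 8, at 17 blocks between 77 and 126 Mb, the highest being 14.9 (12.9 to 17.1, 194 read pairs) at 96 to 97 Mb. In the megabase above the edge on chromosome 8 coverage in HCC1954 was 1.49 times that below it, and the same ratio was 1.38 in SNU-C1, 1.26 in OE33 and 1.095 in SW480. On chromosome 14 the ratio of the megabase above the edge to that below it was 1.16 in HCC1954 and 0.872 to 1.01 in the other lines, so that there the side in contact was the less covered one in HCC1954.

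**Figure D5:**
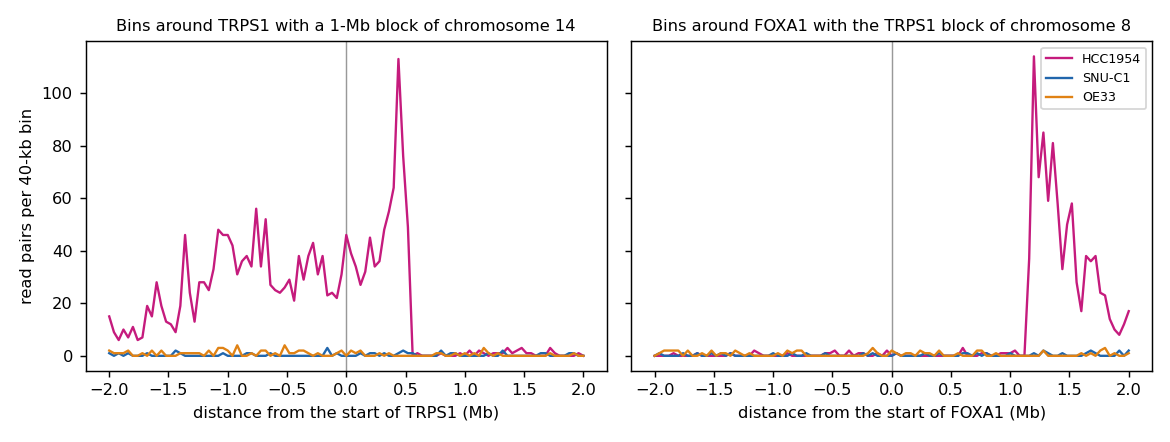
Read pairs between chromosomes per 40-kb bin in HCC1954, SNU-C1 and OE33, against distance in Mb from the start of TRPS1 (left, with a 1-Mb block of chromosome 14) and of FOXA1 (right, with the 1-Mb block of chromosome 8 that holds TRPS1), downstream to the right. In HCC1954 the signal covers TRPS1 and ends downstream of it, and it starts over 1 Mb downstream of FOXA1.

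TRPS1 had further partners in HCC1954 on chromosome 3, with 19 blocks from 178 to 197 Mb and up to 22.6 (19.6 to 25.9), and on chromosomes 20, 4 and 5, and in OE33 on chromosome 16, with up to 20.2 (18.0 to 22.6) at 59 to 60 Mb. TFAP2C reached the highest value of all members, 147 (142 to 152, 3604 read pairs) in HCC1954 with 43 to 44 Mb of chromosome 12, and 79.5 (75.6 to 83.7) with 42 to 43 Mb of chromosome 8. In SNU-C1 TFAP2C contacted chromosome 7, with up to 31.2 (27.4 to 35.4). ELF5 had an O/E of 67.1 (65.9 to 68.4, 10870 read pairs) in SNU-C1 with 4 to 5 Mb of chromosome 3, of which 5690 read pairs joined the bin at 4.68 Mb to the bin at 34.92 Mb of chromosome 11, the first of the highly covered bins 400 kb upstream of ELF5. The bins at 34.88, 34.92 and 34.96 Mb held 114, 7374 and 3375 of these read pairs, while the bins of ELF5 itself, at 34.48 and 34.52 Mb, held 0 and 1, so that the contact belonged to the 1-Mb block and not to the gene. FOXA1 in OE33 contacted chromosome 18 at up to 12.9 (10.1 to 16.2, 74 read pairs).

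Contacts of the 8 genes among themselves were read for the 25 pairs of members on different chromosomes. The median O/E of their 1-Mb blocks came to 1.252 in OE33, 1.14 in SNU-C1 and 1.06 in HCC1954, and no pair reached 4. The share of all pairs of blocks that reach 4 was not computed, so no conclusion about the members is drawn. The highest value in each line was that of SPDEF with ELF5, at 3.28 in SNU-C1 (50 read pairs), 2.82 in HCC1954 (19 read pairs) and 2.49 in OE33 (58 read pairs). Within chromosomes, no member had a contact at least 2 Mb away that passed the same thresholds in HCC1954, against 6.78% of 18089 genes.

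Other genes of the mammary and intestinal lineages were described by compartment value alone. Of 30 luminal genes, 27 had values, of which 1 was called higher in HCC1954 and 2 lower, and their median difference from the other lines was 0.15. Of 15 basal genes 1 was called higher and none lower, with a median of 0.26, and of 14 intestinal genes with values none was called, with a median of -0.18. Over all genes 4.78% were called higher and 2.61% lower, and the median was 0.054. PGR, the progesterone receptor, was called higher though it was negative in every line, at -0.40 in HCC1954 and -1.09 to -1.39 elsewhere. CAV1, a caveolin of basal cells, was at 1.56 against 0.22 to 0.96. TBX3, a T-box factor of luminal cells, was at -0.64 against 0.035 to 0.50. RUNX1 was at -1.52 against 0.69 to 1.02, but on chromosome 21 the HCC1954 value came from an eigenvector that was not the leading one, and by A over B preference it was 0.79 in HCC1954 and 0.63 to 1.49 in the other lines. By that preference no call in the lists passed the margin of 0.5, since PGR was at -0.80 beside -0.93 in the nearest line, CAV1 at 1.01 beside 0.71 and TBX3 at -0.33 beside 0.087. The largest positive differences in the lists were those of PRLR, the prolactin receptor (1.04), PGR (0.92) and LMO4 (0.83). After RUNX1 the largest negative ones were those of the intestinal genes LGR5 (-0.90) and FABP1 (-0.87). Coverage of HCC1954 relative to the other lines was 1.71 at PRLR, 1.74 at PGR and 1.20 at LMO4. It was 1.07 at RUNX1, 0.95 at LGR5 and 0.78 at FABP1. The part of coverage in these differences was not tested.

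By distance over the compartment values of the 4 lines, GATA3 and FOXA1 were both most like ID4, a basal gene, at 0.72 and 0.83, followed by OXTR and LGALS4 for GATA3 and by LMO4 and PRLR for FOXA1. ESR1 was nearest to LMO4 (1.32), PRLR and XBP1, and TFAP2C to XBP1 (0.81), LMO4 and BCL11A. TRPS1 was nearest to PRLR (0.63), GUCY2C and EN1, and TFAP2A to OXTR (0.75), NAT1 and GUCY2C. Those given here for SPDEF (MYH11 and KRT5) and for ELF5 (MLPH, KRT5 and TFF1) lay at 0.12 to 0.25. These distances rest on 4 values per gene.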

How the data were processed

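In situ Hi-C maps of 4 cell lines were analysed, 1 each of HCC1954, SNU-C1 and OE33 and 3 of SW480. The authors deposited a signal per pair of 40-kb bins, namely the contact frequency left after iterative correction, in which read pairs are divided by a factor for either bin. Behind it, per the labels and methods, lie MboI digests, BWA mapping to hg19 and the removal of duplicate pairs by Picard, in versions not given in the sources used here. These factors were recovered here from bin pairs of a chromosome at least 5 Mb apart. For HCC1954, SNU-C1 and OE33 a share of the pairs between chromosomes was used as well. After this, 99.9% to 100% of values up to 20.5 read pairs were whole within 0.02. The methods state that Hi-C was done in duplicate, and no source used here says if the maps of HCC1954, SNU-C1 and OE33 combine the duplicates.

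Bins with under 0.25 of the median coverage in any line were left out, and 64931 of 75918 bins remained. Contacts were divided by the mean at their distance over the genome, averaged beyond 5 Mb over 10% of the distance. Compartment values were eigenvectors of the correlation matrix of 200-kb blocks, taken from the leading 3 as the one most correlated with gene number. For the 6 chromosomes of the members it was the leading one in all 36 combinations with maps. Over all chromosomes it was the leading one in 130 of 138, so the shares over all genes include values from other eigenvectors. Insulation used 1 Mb on each side and a delta of 200 kb. Genes and starts came from GENCODE 44 on GRCh37, and promoters from that genome. Blocks of 1 Mb needed 15 usable bins for contacts between chromosomes. Every comparison is a rule of size, applied to all protein-coding genes and read beside its share over them. Contacts between pairs of members have no such share. All 8 genes were named, with the genes of 3 lineage lists that were called or had the 3 highest or 3 lowest differences, neighbours in the bins of the highest HCC1954 contact, and the 3 genes of the lists most like each member, of which 1 is not reported here. The members, lists and thresholds were chosen with earlier results of these data known. Scripts were tested on simulated data. Python 3 with NumPy, SciPy and pandas was used. Alternatives covered the correction, thinning to equal depth, block and window sizes, the bin filter, thresholds and each SW480 replicate.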

Additional observations from a re-analysis of the deposited data

How the results depend on the processing

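No paired analysis was possible because, among the maps analysed here, SW480 alone comes with separate replicates. The number of members called higher in HCC1954 in compartment was 1 as reported and also with 400-kb blocks, without iterative correction, with maps thinned to equal depth, with a bin filter of 0.1 of the median coverage and with either SW480 replicate alone. With 400-kb blocks FOXA1 kept its margin over the other lines but not its sign, going from 0.48 to -0.0029 in HCC1954. The number was 0 by A over B preference, 0 with a margin of 1 and 2 with a margin of 0.25, which added ESR1. Insulation calls were 0 as reported, 1 with a margin of 0.15 (ESR1) and 2 without iterative correction (TFAP2A and TFAP2C). Flank contact calls were 0 as reported and 2 without iterative correction (FOXA1 and TFAP2A), and single contact calls were 0 as reported and 1 without it (FOXA1). The cause was not tested. Coverage calls were 3 as reported, 4 over the bins of the gene alone and 5 at a lower fold (with ESR1 and SPDEF added). Calls of distant contacts were 0 as reported and 4 with no minimum of read pairs, each of them resting on at most 6 read pairs. Calls between chromosomes were 5 in all settings run.

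HCC1954 minus the median of the other lines kept its sign in 52 of 56 alternative values for compartment, 42 of 48 for insulation, 43 of 48 for flank contacts and 31 of 32 for coverage. The changes of sign in compartment were at SPDEF and ELF5, where the difference was below 0.06 in size. Insulation changed sign without iterative correction at FOXA1 (-0.30 to 0.63), GATA3 (-0.16 to 0.11), TFAP2A (-0.17 to 0.52) and TFAP2C (-0.066 to 1.06), and at ELF5, where it was -0.0016, with a smaller window or at equal depth. On the log2 scale, flank contacts changed without iterative correction from 0.11 to -0.44 at ELF5 and from -0.0030 to 0.36 at ESR1, with the start bin alone from 0.029 to -0.11 at SPDEF, with the expected value of the chromosome from 0.15 to -0.020 at TFAP2C, and without SW480 replicate 1 to 0.0024 at ESR1. On the same scale, coverage of TFAP2C changed from -0.043 to 0.50 over the bins of the gene alone. The 3 by 3 bin contacts of the 8 genes within 1 Mb held as few as 17 read pairs, which limits their precision.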
